A study of Mus musculus with 12 samples.

Results

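The genes described here encode the machinery that presents peptides on MHC class I: the light chain gene B2m, the classical heavy chain genes H2-D1 and H2-K1, the transporter genes Tap1 and Tap2, the chaperone gene Tapbp, the trimming peptidase gene Erap1 and the transcriptional activator gene Nlrc5. They were chosen by symbol, and 7 of the 8 were among the 14852 genes with input RNA values. Nlrc5 was not analysed here. The same symbols took 11 of 19049 ac4C peaks, in 5 of the genes.

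All samples came from ID8, a cancer cell line derived from mouse ovarian surface epithelium, and were either treated with cisplatin, a platinum drug that crosslinks DNA, or left as control. The study set out to examine mRNA regulation by NAT10, the enzyme that writes the modified base N4-acetylcytidine (ac4C), under cisplatin. Fragmented, ribosome-depleted RNA was measured as input and after pull-down by an ac4C antibody (IP), which gave 12 libraries in 4 groups of 3. The sources used here give no dose or duration and do not say whether replicates were separate cultures, so a p-value covers only library-to-library spread, possibly technical.

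MHC class I molecules show fragments of a cell's own proteins to CD8 T cells. Peptides made by the proteasome are pumped into the endoplasmic reticulum by the transporter of TAP1 and TAP2, trimmed there by ERAP1, and loaded with the help of tapasin, the product of Tapbp, onto a heavy chain paired with beta-2 microglobulin. In many tumours loss of one of these components lets cells escape T cells, and interferon and NF-kappaB signals are known inducers of the genes.

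Input RNA levels are FPKM, fragments scaled for gene length and library size. Comparing levels of different genes rests on the gene lengths used for that scaling, which were not examined here. The input libraries held 24290219, 30159427 and 22201704 fragments in listed genes for cisplatin replicates 1, 2 and 3, and 21583201, 21900044 and 20682920 for control replicates 1, 2 and 3. ID8 cells showed the epithelial and mesothelial markers Krt8, Krt18, Krt19, Msln and Wt1, while Krt7 lay at 0 to 0.0175 FPKM in cisplatin and 0.0188 to 0.266 FPKM in control libraries. The epithelial marker Cdh1 was low, at 1.97 to 2.51 FPKM in cisplatin and 2.15 to 2.71 FPKM in control libraries (limma adjusted p = 0.321). Epcam, also listed, was not analysed here. The 9 listed ID8 markers with values summed to 3556 to 3945 FPKM in cisplatin and 2453 to 2495 FPKM in control libraries. They did not move together: Krt8, Krt18, Krt19, Vim and Msln rose, whereas Wt1 fell to 12.4 ± 0.598 FPKM in cisplatin, against 45.1 ± 1.08 FPKM in control libraries, and Upk3b to 61.1 ± 4.76 FPKM in cisplatin, against 81.6 ± 1.78 FPKM in control libraries (SD, n = 3 each, limma adjusted p = 1.09e-07 and 0.000312). Of 8 leukocyte markers 1 had values, Cd68, a lysosomal glycoprotein gene that was higher after cisplatin, with 7.50 to 9.72 FPKM in cisplatin and 2.22 to 2.57 FPKM in control libraries. The other 7, among them Ptprc, and all endothelial and erythroid markers were not analysed here, and the part of Cd68 or the other markers in the results below was not tested.

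Cisplatin-treated cells had more RNA of the light chain gene B2m, of the heavy chain gene H2-D1 and of both transporter genes, and less of the trimming gene Erap1. The second classical heavy chain gene, H2-K1, did not pass the test. Tests came from limma across all genes, on log2(FPKM + 1), adjusted by Benjamini-Hochberg, at a threshold of 0.05. Of the 7 members tested, 4 rose and 2 fell, where 40.1% of the 11449 tested genes rose and 41.1% fell (81.3% in either direction). The libraries of the treatments did not overlap for 6 of the 7 members, beside 84.2% of tested genes. With most genes called, a call alone sets these genes little apart from the rest. Their median log2 change was 0.43, against -0.003 over all tested genes. In bulk RNA, fewer cells with a transcript and less of it per cell cannot be told apart.

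B2m encodes beta-2 microglobulin, the invariant light chain (ENSMUSG00000060802, chromosome 2, 122147687 to 122153082, GRCm38.p6). It measured 113.8, 117.6 and 122.5 FPKM in cisplatin replicates 1, 2 and 3, against 57.5, 58.2 and 59.2 FPKM in control replicates 1, 2 and 3. All 3 cisplatin libraries lay above all control libraries, as in 41.8% of tested genes. The mean was 118 ± 4.39 FPKM in cisplatin and 58.3 ± 0.876 FPKM in control libraries (SD, n = 3 each), a 2.02-fold rise. The log2 change was 1.00 (SE 0.036, 95% confidence interval 0.92 to 1.09, limma adjusted p = 4.03e-07). Of all tested genes, 89.2% had a lower log2 change, and 10.8% rose by 1 or more. By FPKM, B2m was the most abundant member in both treatments.

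H2-D1 encodes one of the classical heavy chains (ENSMUSG00000073411, chromosome 17, 35263094 to 35267497, GRCm38.p6). Its levels were 32.0, 33.9 and 30.3 FPKM in cisplatin replicates 1, 2 and 3, against 17.9, 18.3 and 18.2 FPKM in control replicates 1, 2 and 3. The groups did not overlap, and the control libraries differed by less than 1 FPKM. H2-D1 rose 1.77-fold, a log2 change of 0.79 (SE 0.045, limma adjusted p = 2.88e-06).

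H2-K1 encodes the other heavy chain (ENSMUSG00000061232, chromosome 17, 33996012 to 34000619, GRCm38.p6). Its levels were 13.4, 13.8 and 12.2 FPKM in cisplatin replicates 1, 2 and 3, against 12.7, 11.6 and 12.01 FPKM in control replicates 1, 2 and 3. The third cisplatin library lay within the control range, so the groups overlapped. The log2 change of H2-K1 was 0.10 (SE 0.058, 95% confidence interval -0.03 to 0.24, limma adjusted p = 0.131). It passed the threshold without cisplatin replicate 3 (log2 change 0.15, limma adjusted p = 0.0237).

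The difference between the heavy chains was measured within each library, as the ratio of their FPKM values, a comparison chosen after the values were seen. H2-D1 stood at 2.39, 2.46 and 2.50 times H2-K1 in cisplatin libraries, against 1.41, 1.57 and 1.51 times in control libraries. The ratio separated the treatments completely (difference of the mean log2 ratios 0.71, exact two-sided permutation p = 0.1, the smallest that 3 against 3 allows). Class I heavy chain genes are close paralogs. The sources used here do not say how reads that fit several of them were counted, so the levels of single heavy chains are uncertain to that extent.

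The promoter regions of the heavy chain genes, H2-D1 and H2-K1, are shown because the sequences are alike while the RNA changes were not, beside those of B2m, which rose, and Erap1, which fell. Each holds 250 bases before and 50 after an annotated start, from RefSeq on GRCm38.p6. Of the 8 genes, 6 had an entry in that table. Capitals mark letters of an NF-kappaB consensus, of a longer and a shorter interferon-response-like motif (TTTC, any 2 bases, then TTTC in the longer or TTC in the shorter), of the Y box ATTGG and of the X2-like TGACG, searched on both strands.
H2-D1: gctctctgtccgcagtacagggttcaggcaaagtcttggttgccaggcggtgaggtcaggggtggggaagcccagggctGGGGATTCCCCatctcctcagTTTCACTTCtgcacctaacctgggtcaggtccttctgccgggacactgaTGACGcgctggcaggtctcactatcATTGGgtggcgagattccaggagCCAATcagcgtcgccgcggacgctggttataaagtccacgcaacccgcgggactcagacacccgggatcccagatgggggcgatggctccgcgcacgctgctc
H2-K1: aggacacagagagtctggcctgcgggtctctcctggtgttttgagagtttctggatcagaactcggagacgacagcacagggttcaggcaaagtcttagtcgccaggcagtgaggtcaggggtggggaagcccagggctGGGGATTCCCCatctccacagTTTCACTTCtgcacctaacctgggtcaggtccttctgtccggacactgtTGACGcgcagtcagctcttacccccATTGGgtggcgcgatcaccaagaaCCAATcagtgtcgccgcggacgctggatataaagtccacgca
B2m: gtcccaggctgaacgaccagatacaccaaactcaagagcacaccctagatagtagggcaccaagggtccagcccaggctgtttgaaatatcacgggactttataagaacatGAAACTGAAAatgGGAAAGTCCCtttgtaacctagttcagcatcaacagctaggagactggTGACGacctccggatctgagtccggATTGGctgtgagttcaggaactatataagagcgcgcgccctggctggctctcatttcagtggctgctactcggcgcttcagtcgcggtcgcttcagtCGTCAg
Erap1: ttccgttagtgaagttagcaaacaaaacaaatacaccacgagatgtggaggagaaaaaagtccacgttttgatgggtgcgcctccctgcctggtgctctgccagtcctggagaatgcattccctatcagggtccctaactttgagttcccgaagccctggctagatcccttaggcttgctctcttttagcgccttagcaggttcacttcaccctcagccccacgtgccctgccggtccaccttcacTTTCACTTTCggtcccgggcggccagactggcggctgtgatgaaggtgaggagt
They lie at chr17:35262844-35263143 on the plus strand for H2-D1 and chr17:34000298-34000597 on the minus strand for H2-K1. The B2m region is chr2:122147437-122147736 and the Erap1 region chr13:74639603-74639902, both on the plus strand. For H2-D1 and B2m the start used is the 5' end of the gene span given above. For H2-K1 and Erap1 it lies 272 and 280 bases inside the annotated span, so those regions fall within the gene as annotated, and the sequence before its outermost 5' end was not analysed here. H2-K1 had a second start in the table, 286 bases inside the span, and its region carried the same motifs.

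Aligned with free ends and 1 internal gap, H2-D1 and H2-K1 shared 211 of 239 aligned promoter bases (88.3%). Both held overlapping NF-kappaB matches on both strands in GGGGATTCCCC, then TTTCACTTC, TGACG, and a Y box on each strand, in the same order. The NF-kappaB match began 171 bases before the start used for H2-D1 and 111 bases before that used for H2-K1, which, as given above, are not placed alike within their gene spans. B2m held an NF-kappaB match 126 bases and the longer interferon-response-like motif, on the minus strand, 139 bases before its start. Erap1 held TTTCACTTTC, which began 4 bases before the start used and ran across it, and this window held none of the other letters searched. The windows of Tap1, which rose, and of Tapbp are not shown. Both held 0 NF-kappaB matches and 0 interferon-response-like motifs. Among 32851 promoter regions of the same length, 4.51% held the NF-kappaB consensus, 3.44% the longer and 7.52% the shorter interferon-response-like motif, 37.4% ATTGG and 20.8% TGACG. An NF-kappaB match together with either interferon-response-like motif was present in 0.463% of them. Such matches describe letters, not bound sites.

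Light and heavy chain RNA did not change in proportion. The ratio of B2m to the summed FPKM of H2-K1 and H2-D1 was 2.51, 2.47 and 2.88 in cisplatin libraries, against 1.88, 1.95 and 1.96 in control libraries. Its mean was 2.62 ± 0.23 in cisplatin and 1.93 ± 0.046 in control libraries (SD, n = 3 each). The difference of the mean log2 ratios was 0.44 (exact two-sided permutation p = 0.1, the smallest possible). Set against H2-D1 alone the difference was 0.19, and against H2-K1 alone it was 0.90.

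**Figure D1:**
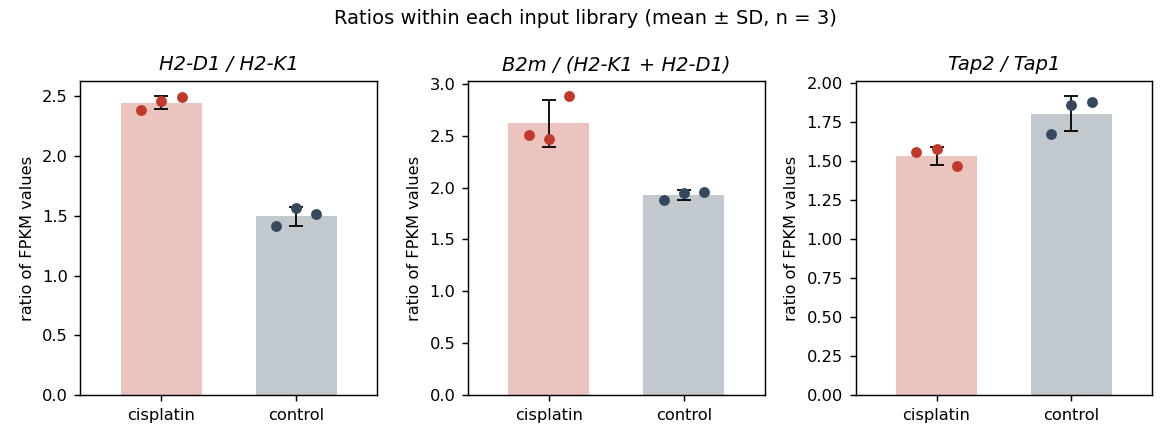
Ratios of FPKM values within each input library, for H2-D1 over H2-K1, B2m over the sum of both heavy chains, and Tap2 over Tap1. Points are replicates, bars means and whiskers SD (n = 3). The cisplatin libraries lie above the control libraries in the left and middle panels and below them in the right panel.

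Tap1 and Tap2 encode both chains of the peptide transporter and lie close together in the MHC region of chromosome 17 (Tap1, ENSMUSG00000037321, 34187556 to 34197225, and Tap2, ENSMUSG00000024339, 34204479 to 34216321, GRCm38.p6). Tap1 measured 2.87, 2.64 and 2.50 FPKM in cisplatin replicates 1, 2 and 3, against 1.61, 1.52 and 1.51 FPKM in control replicates 1, 2 and 3. Tap2 measured 4.47, 4.16 and 3.67 FPKM in cisplatin replicates 1, 2 and 3, against 2.69, 2.82 and 2.83 FPKM in control replicates 1, 2 and 3. For both genes all cisplatin libraries lay above all control libraries.

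Tap1 rose 1.73-fold in mean FPKM (log2 change 0.53, SE 0.062, limma adjusted p = 0.000131) and Tap2 1.47-fold (log2 change 0.43, SE 0.072, limma adjusted p = 0.000911). At such low levels the log2(FPKM + 1) scale understates the change. The values rest on 302 to 441 fragments per cisplatin library and 179 to 199 per control library for Tap1. For Tap2 they rest on 306 to 480 and 230 to 244 fragments. Tap1 was among the less abundant tested genes, with 17.6% of them at a lower level. The ratio of Tap2 to Tap1 was 1.53 ± 0.058 in cisplatin and 1.80 ± 0.11 in control libraries (SD, n = 3 each; difference of the mean log2 ratios -0.23, exact two-sided permutation p = 0.1, the smallest possible).

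Between Tap1 and Tap2 lies Psmb8, an immunoproteasome subunit gene. It had 1.61, 2.01 and 1.38 FPKM in cisplatin and 0.291, 0.479 and 0.355 FPKM in control libraries. Tested genes had to reach 1 FPKM in 3 libraries, and Psmb8 did so only through its cisplatin libraries. It could enter the test only by being high there, so its call gives no support for a rise. The wider stretch from Tapbp to H2-D1, 33919478 to 35267497, held 46 tested genes, 5 of them members. Of the 46, 28 rose (60.9%), counting Psmb8, and 9 fell (19.6%), beside 40.1% and 41.1% of all tested genes. The stretch was chosen after the values were seen, and no test was made of it.

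Tapbp encodes tapasin, which bridges the transporter and the heavy chain (ENSMUSG00000024308, chromosome 17, 33919478 to 33929290, GRCm38.p6). It was the second most abundant member, with 49.0, 47.8 and 46.9 FPKM in cisplatin replicates 1, 2 and 3, against 50.5, 53.0 and 50.2 FPKM in control replicates 1, 2 and 3. All cisplatin libraries lay below all control libraries, as in 42.4% of tested genes, by a gap narrower than the range within either group. The log2 change was -0.09 (SE 0.035, limma adjusted p = 0.0379). That call was lost without cisplatin replicate 2 (adjusted p = 0.0666) or 3 (0.072) and without control replicate 1 (0.0755), 2 (0.158) or 3 (0.0592). In the authors' deposited table the adjusted p for Tapbp was 0.0598, where 77.8% of all listed genes passed.

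Erap1 encodes the aminopeptidase that trims peptides in the endoplasmic reticulum (ENSMUSG00000021583, chromosome 13, 74639573 to 74693205, GRCm38.p6). It measured 2.22, 1.62 and 2.32 FPKM in cisplatin replicates 1, 2 and 3, against 6.53, 6.27 and 5.98 FPKM in control replicates 1, 2 and 3. No cisplatin library came near the control range. The mean was 2.05 ± 0.378 FPKM in cisplatin and 6.26 ± 0.277 FPKM in control libraries (SD, n = 3 each), 3.05-fold lower. Its log2 change was -1.26 (SE 0.097, 95% confidence interval -1.49 to -1.03, limma adjusted p = 1.30e-05), and 8.66% of tested genes had a lower one, while 13.1% fell by 1 or more. The recovered fragments numbered 393, 360 and 372 in cisplatin and 1074, 1045 and 942 in control libraries.

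**Figure D2:**
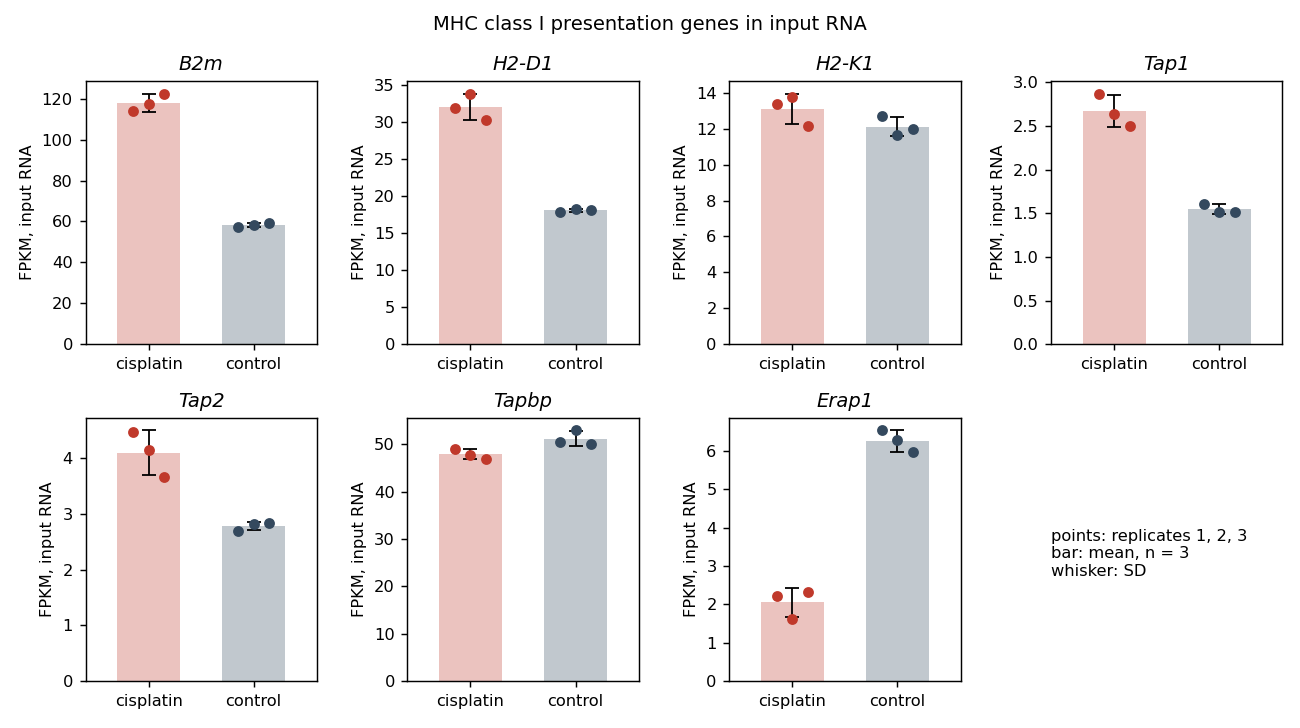
FPKM of the 7 members in each input library. Points are replicates 1, 2 and 3, bars means and whiskers SD (n = 3). The treatments are apart for all genes but H2-K1, by the widest margin in proportion for Erap1 and by a narrow one for Tapbp.

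The order of the levels changed at its lower end. In cisplatin libraries it ran B2m, Tapbp, H2-D1, H2-K1, Tap2, Tap1 and Erap1, from the highest mean FPKM to the lowest. In control libraries it ran B2m, Tapbp, H2-D1, H2-K1, Erap1, Tap2 and Tap1. Neighbours in these orders did not overlap in their 3 libraries. Erap1 thus stood above both transporter genes in control libraries and below both after cisplatin.

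For B2m and Erap1, the tested genes with the most similar pattern were sought by the Euclidean distance, over the 6 input libraries, of log2(FPKM + 1) from the control mean. Nearest to B2m were Med14 (distance 0.0568), Lrsam1 (0.0596) and Clspn (0.0629). Med14 averaged 6.20 ± 0.384 FPKM in cisplatin and 2.54 ± 0.0781 FPKM in control libraries (SD, n = 3 each). Lrsam1 averaged 4.68 ± 0.219 and 1.80 ± 0.0287 FPKM, and Clspn 28.8 ± 1.32 and 14.1 ± 0.144 FPKM, in the same order. At low levels this scale understates the change, so genes alike on it can differ in fold. Nearest to Erap1 were Fbxo5 (0.0986), Sppl3 (0.114) and Rabl3 (0.116). Fbxo5 averaged 2.05 ± 0.406 FPKM in cisplatin and 6.49 ± 0.447 FPKM in control libraries. Sppl3 averaged 1.33 ± 0.282 and 4.43 ± 0.0399 FPKM, and Rabl3 0.479 ± 0.195 and 2.55 ± 0.147 FPKM, in the same order. Rabl3 reached 1 FPKM only in control libraries, so it could be compared only by being high there. None of these neighbours is a class I presentation gene.

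Other genes of the pathway moved both ways. Over 9 lists with 126 genes, 85 were tested, of which 29 rose and 35 fell, against 40.1% and 41.1% of all tested genes. Among the other class I heavy chain genes 1 of 5 tested rose and 1 fell. H2-T22, a nonclassical heavy chain gene, had 11.8 ± 0.659 FPKM in cisplatin and 6.07 ± 0.25 FPKM in control libraries (limma adjusted p = 5.12e-06). H2-M3, which presents formylated peptides, fell to 1.28 ± 0.245 FPKM in cisplatin, against 4.03 ± 0.204 FPKM in control libraries (adjusted p = 1.29e-05). H2-T23 had 4.14 ± 0.261 FPKM in cisplatin and 4.67 ± 0.328 FPKM in control libraries and did not pass (adjusted p = 0.0904).

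Of the chaperones around peptide loading 2 of 11 rose and 7 fell, with a median log2 change of -0.26. Only 1 rose without cisplatin replicate 1 or without control replicate 1, 2 or 3. The general chaperone gene Hspa5 and the disulfide isomerase gene Pdia6 had log2 changes of -0.77 and -0.45, while Prkcsh, a glucosidase subunit gene, rose by 0.57 (limma adjusted p of 1.31e-05 or less for each). In the immunoproteasome and activator list 3 of 7 rose, counting Psmb8 with the limit given above, and 1 fell. Beside Psmb8, the activator subunit gene Psme2 had a log2 change of 0.42 and Psme4 one of -0.37. Among cytosolic and endosomal peptidases 2 of 9 rose and 4 fell. Npepps, a cytosolic aminopeptidase gene, had a log2 change of 0.79, Lnpep, an endosomal relative of Erap1, one of -0.52 and the insulin-degrading enzyme gene Ide one of -0.70.

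Among transcription factors known at class I promoters, in a list that also holds the Polycomb genes Ezh2, Eed and Suz12, 10 of 23 rose and 6 fell. Nfkb2 rose to 81.4 ± 4.65 FPKM in cisplatin, against 26.7 ± 1.72 FPKM in control libraries. Nfkb1 fell to 7.09 ± 0.347 FPKM in cisplatin, against 14.4 ± 0.169 FPKM in control libraries. Nfyc, a subunit of the Y box factor, had a log2 change of -0.96, while its other subunit genes Nfya and Nfyb rose by 0.31 and 0.40. Of interferon receptors, their kinases and the regulators Socs3, Ptpn2 and Ptpn6, 5 of 10 rose and 3 fell. Ptpn6 counted among the risen and Ptpn2 among the fallen. Ifngr1 was higher by 0.63 and Jak2 by 0.57, with a log2 change of -0.46 for Jak1. Genes of class I quality control and turnover were lower in 10 and higher in 4 of 14 cases, with a median log2 change of -0.48. The higher ones numbered 2 of 13 tested without cisplatin replicate 1 or 2. Part of that drop is March9, which reached 1 FPKM only in cisplatin libraries and was then not tested. The endoplasmic reticulum degradation genes Derl2, Ube2j1 and Derl1 had log2 changes of -1.40, -1.28 and -0.96.

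Ligands of natural killer cell receptors, cells that can attack targets with too little class I, had 2 of 6 higher, counting Raet1d, and 3 lower. Without cisplatin replicate 1 or 3, 1 of 5 tested was higher, as Raet1d then fell under the filter and was not tested. Pvr had a log2 change of 0.89 and Nectin2 one of -0.96. Raet1d was listed at 3.00, 3.43 and 3.15 FPKM in cisplatin libraries, against 0.0307, 0 and 0 FPKM in control libraries. Like Psmb8, it reached 1 FPKM only in cisplatin libraries, so its call gives no support for a rise. Raet1e went the other way, with 2.36 ± 0.124 FPKM in cisplatin and 4.54 ± 0.407 FPKM in control libraries (limma adjusted p = 5.27e-05). Raet1 genes are near-identical copies, so the assignment of these reads is uncertain. The 12 MHC class II genes listed were not analysed here.

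**Figure D3:**
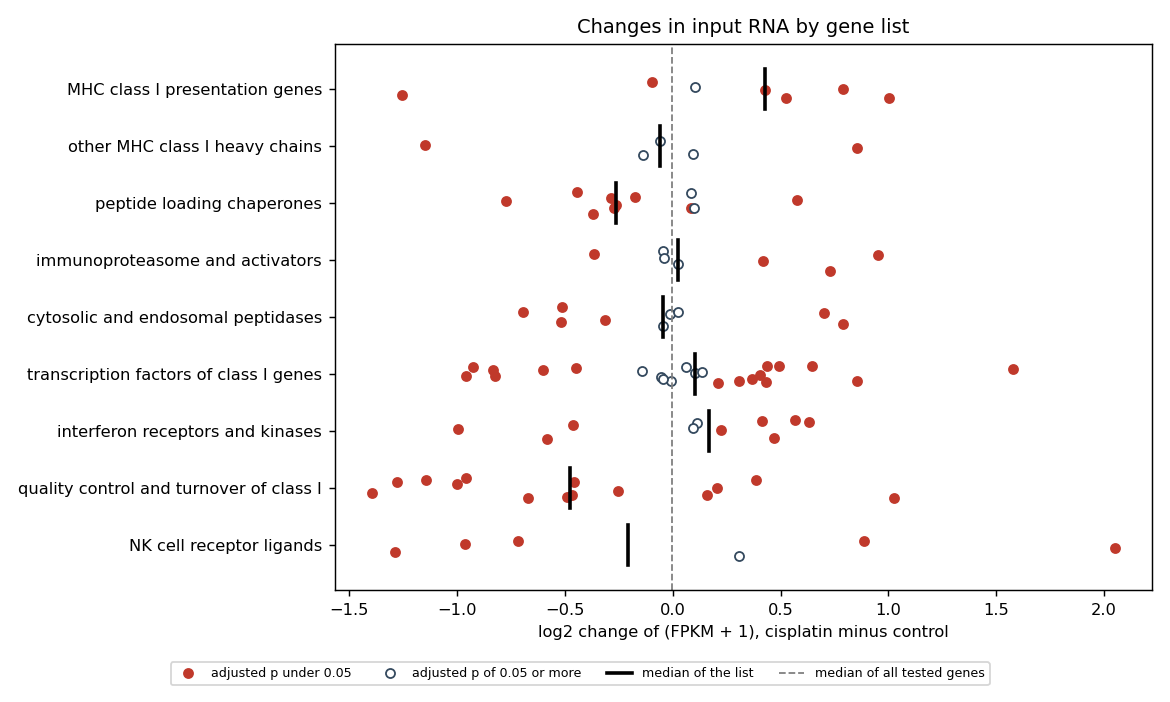
Log2 change of (FPKM + 1), cisplatin minus control, for each tested gene by list, with the list's median as a black bar and the median of all tested genes as a dashed line. Filled points passed an adjusted p of 0.05. The MHC class I presentation genes have a median of 0.43 and reach from -1.26 to 1.00.

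The ac4C peaks were read from the authors' deposited table, which compares the treatments per peak and holds no value per library. Its headers do not state which treatment was subtracted, so signs are printed as deposited. Of the 7 members with values 5 carried at least 1 peak, beside 65.6% of tested genes. Of the 11 peaks 6 had an adjusted p under 0.05 in the authors' deposited table, 5 of them positive and 1 negative. Over all 19049 peaks 46.2% passed, 36.5% with a positive and 9.62% with a negative difference. The median log2 difference was 1.00 over the members' peaks and 1.58 over all peaks. By the authors' classes 6 of the 11 peaks lay in coding sequence, 2 in 3' untranslated regions and 3 in exons of no further class.

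Tapbp carried 3 peaks, each past the threshold and with signs that differed along the transcript. The coding peak at chromosome 17, 33926128 to 33926428, had a log2 difference of -2.51 (adjusted p = 1e-16) and a fold enrichment of 8.40 in the authors' deposited table. The 3' untranslated peak at 33928270 to 33928599 had 2.16 (adjusted p = 0.00234) in the authors' deposited table. A second one at 33928958 to 33929138, 152 bases before the gene's end, had 5.13 (adjusted p = 6.31e-46) in the authors' deposited table. Of genes with exactly 3 such peaks, 43.7% carried both signs, and 38.1% of genes with 2 or more did, so this mixture is common in the table.

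Erap1 carried 4 coding peaks, and the 2 past the threshold were positive. They lay at chromosome 13, 74669423 to 74671431 and 74672863 to 74673737, each over 2 exonic blocks, with log2 differences of 4.97 (adjusted p = 5.01e-15) and 5.49 (adjusted p = 5.01e-11) in the authors' deposited table. The others, at 74646490 to 74646640 and 74666145 to 74666478, had -3 (adjusted p = 0.232) and -0.74 (adjusted p = 0.723) in the authors' deposited table. Their place along the gene differed, at 57.5% and 62.9% of the gene span from the 5' end for the positive pair and at 13.0% and 49.9% for the others. Erap1 RNA itself was lower after cisplatin. Among called peaks of all genes with lower input RNA, 77.6% were positive.

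H2-K1, the heavy chain gene whose RNA did not pass the test, carried 1 exon peak at chromosome 17, 33997403 to 33997702. In the authors' deposited table it had a fold enrichment of 19.5, the highest of the members' peaks, with a log2 difference of 4.71 (adjusted p = 2.00e-12). Over all peaks the median enrichment was 7.05-fold. H2-D1, its close paralog, had 0 peaks, and so had B2m. The sources used here do not say how reads that fit several heavy chain genes were placed. The assignment of this peak to H2-K1, and the lack of one in H2-D1, are uncertain to that extent. Among 2656 tested genes with a higher group mean of 20 to 200 FPKM, the range that holds B2m, H2-D1 and Tapbp, 83% had at least 1 peak.

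The peaks of the transporter genes did not pass. Tap1 had 2 exon peaks near its 3' end, at chromosome 17, 34196657 to 34196836 and 34196926 to 34197105, with log2 differences of 0.05 and 0.58 (adjusted p = 0.679 and 0.729) in the authors' deposited table. Tap2 had a coding peak at 34205315 to 34205464 with 1.00 (adjusted p = 0.723) in the authors' deposited table. Of the 4 members that rose in input RNA, B2m and H2-D1 had 0 peaks and Tap1 and Tap2 had 0 past the threshold, where 44.1% of all genes that rose had at least 1 past it. The 3 other members with values each had at least 1, beside 38.5% of the tested genes that did not rise. By the authors' deposited log10 p of the peak itself, the 5 members' peaks not past the threshold had -3.18 to -2.28. The 6 past it had -66.7 to -6.41, and the part of peak strength in this split was not tested.

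**Figure D4:**
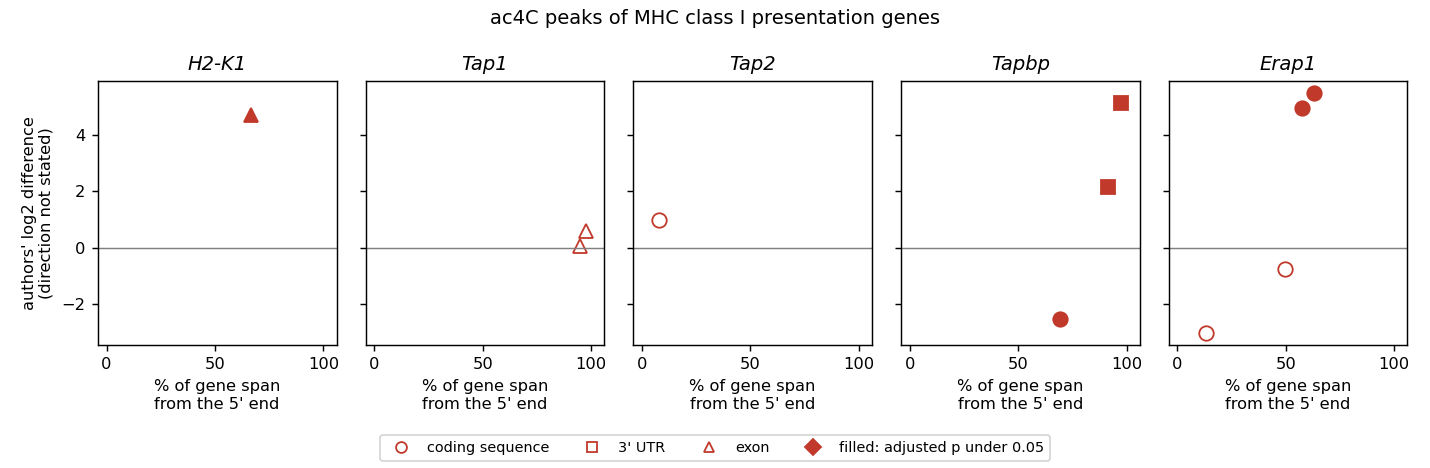
The 11 ac4C peaks of 5 genes, with the position of the peak's middle along the gene in percent of its span from the 5' end and the authors' log2 difference, whose direction is not stated. Filled symbols passed an adjusted p of 0.05 and the shape gives the authors' class. The 3 peaks of Tapbp are at -2.51, 2.16 and 5.13, and those of Tap1 and Tap2 are open symbols at 1.00 or less.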

How the data were processed

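Values of 6 input libraries of ID8 cells, 3 treated with cisplatin and 3 control, were used as deposited. The authors deposited FPKM per gene, with their own log2 fold change and p-value, per the file headers. Their peak table gives, per the file headers, a fold enrichment, a log2 difference and log10 p scores, which were turned into adjusted p. Peak positions were turned to counting from 1. Build mm10 and the tools HISAT2, HOMER, fastp and FastQC appear in the submitters' processing notes. The sources used here do not state counter, peak caller or strand setting.

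On log2(FPKM + 1), limma 3.58.1 (R 4.3.3, mean trend) tested every gene that reached 1 FPKM in 3 libraries. The test was tried on simulated data. FPKM steps gave whole fragments for all 14852 genes, within a tolerance of 0.0001. Replicates of a group differed by a mean chi-square per gene of 2.36 or more. No resequenced library was at hand to compare this value with. Whether the replicates were resequenced libraries or technical preparations of the same culture thus cannot be told from it. Intervals cover the spread between libraries only. Members, lists and the naming rule (all members, the 3 smallest adjusted p per list, the 3 nearest genes) were chosen with earlier results of these data known. Alternatives covered pseudocount, filter, scaling, voom on the recovered fragments with TMM factors, a replicate block and leaving out libraries. Sequences and gene spans are RefSeq's for GRCm38.p6, the assembly behind mm10. Motifs were searched in Python 3.11.15 and promoters aligned with Biopython 1.88.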

Additional observations from a re-analysis of the deposited data

How the results depend on the processing

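The log2 changes of B2m (0.81 to 1.03), H2-D1 (0.69 to 0.83), Tap1 (0.46 to 0.79), Tap2 (0.35 to 0.56) and Erap1 (-1.65 to -1.15) kept their direction and call under each alternative that tested them. Tap1 and Tap2 were not tested with a filter at 5 FPKM, which left 2 members higher in place of 4, since fewer genes were tested. Erap1 reached 5 FPKM only in control libraries, so its call under that filter gives no support for a fall. The replicate block left 1 member lower in place of 2, as Tapbp no longer passed (log2 change -0.09, adjusted p = 0.055). Same-numbered libraries deviated together at r of 0.0975, -0.116 and 0.0428, which gives no sign of pairing by number. With 3 libraries per group such values cannot exclude that same-numbered libraries were handled together. Leaving out single libraries gave 1 to 2 members lower and 4 to 5 members higher, 5 without cisplatin replicate 3, when H2-K1 passed. H2-K1 ranged from 0.01 to 0.15. The ratio differences without single libraries were 0.37 to 0.48 for B2m to heavy chains, -0.29 to -0.20 for Tap2 to Tap1 and 0.67 to 0.74 for H2-D1 to H2-K1. A stricter peak threshold of 0.01 kept 6 peaks. Of 234 counts over the pathway lists under alternatives, 20 differed by more than 1.5 times. Rescaling libraries to a common sum moved the median of all tested genes to -0.09. Without a value per IP library, peak differences have no replicate check here.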
